A study of Mus musculus with 15 samples.

Results

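The 10 genes described here encode the calcium switch of the skeletal muscle thin filament, namely the troponin C genes *Tnnc1* and *Tnnc2*, the troponin I genes *Tnni1* and *Tnni2*, the troponin T genes *Tnnt1*, *Tnnt2* and *Tnnt3*, and the tropomyosin genes *Tpm1*, *Tpm2* and *Tpm3*. They were taken by gene symbol from the raw count table, where all 10 were found among 30672 genes, and all 10 were among the 15533 genes that passed the filter on low counts. Messenger RNA of the tibialis anterior, a fast muscle of the lower leg, was sequenced in male 129Pas mice aged 7 weeks. The 15 libraries formed 4 groups of untreated wild type (WT, n = 4), wild type given tamoxifen (WT + TAM, n = 4), untreated *Mtm1*-/y (n = 4) and *Mtm1*-/y given tamoxifen (*Mtm1*-/y + TAM, n = 3). *Mtm1*-/y males carry a disrupted X-linked gene for the lipid phosphatase myotubularin and serve as a model of X-linked myotubular myopathy, and the comparisons ask how the loss of *Mtm1* and the drug, each alone and together, go with the levels of these genes. Tamoxifen is a modulator of the oestrogen receptor; the sources used here do not state its dose, route or duration, or what untreated mice received.

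In a resting fibre, tropomyosin lies along the actin filament and covers the sites that myosin binds. Calcium binding to troponin C relieves the inhibition by troponin I, and troponin T, which anchors the complex to tropomyosin, passes the change on so that tropomyosin moves and myosin can attach. Slow and fast fibres build this switch from different genes, so the isoforms serve as fibre type markers: *Tnnc1*, *Tnni1*, *Tnnt1* and *Tpm3* are the slow genes, *Tnnc2*, *Tnni2*, *Tnnt3* and *Tpm1* the fast ones, *Tpm2* encodes the beta-tropomyosin found in both, and *Tnnt2*, the cardiac troponin T gene, is also used by embryonic and regenerating skeletal muscle.

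Total counts per library ranged from 18042558 to 45823277. *Mtm1* itself averaged 15.2 ± 0.294 CPM (SD, n = 4) in WT and 3.36 ± 0.338 CPM (SD, n = 4) in *Mtm1*-/y, a fall of 2.19 on the log2 scale (SE 0.12, adjusted p = 5.458e-08), and levels in both treated groups lay within 13.5 to 17.7 CPM in WT + TAM and 3.05 to 3.71 CPM in *Mtm1*-/y + TAM. CPM are counts scaled to a common library size with TMM factors, and the tests are edgeR's quasi-likelihood tests with Benjamini-Hochberg adjustment over all tested genes, called at an adjusted p under 0.05. All 8 skeletal muscle markers checked, among them *Acta1*, *Ckm* and *Ttn*, were detected in every group. WT + TAM replicate 1 and *Mtm1*-/y replicate 1 each stood apart from the other libraries. WT + TAM replicate 1 lay at -73.1 on the third principal component, where the other 14 libraries lay between -3.93 and 11.6. *Mtm1*-/y replicate 1 was at -69.1 on the second component, where the other 14 lay between -21.15 and 33.47. Results that rest on WT + TAM replicate 1 are given with and without it. Some results, those of *Tpm1* and *Tnnt3* among them, are also given without *Mtm1*-/y replicate 1. The labels number the replicates but do not say how the animals were bred or housed, so p-values measure the spread between these libraries alone.

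The genes lie on 7 chromosomes of GRCm38. On chromosome 1, *Tnni1* (chr1:135779434-135810989) and *Tnnt2* (chr1:135836354-135852260), both on the plus strand, are 25364 bases apart, and on chromosome 7 *Tnni2* (chr7:142441808-142444410) and *Tnnt3* (chr7:142498836-142516009), also on the plus strand, are 54425 bases apart. *Tnnt1* (chr7:4504570-4516382, minus strand) lies 1922 bases from *Tnni3*, the cardiac troponin I gene. The other 5 lie apart: *Tnnc1* at chr14:31208312-31211729 on the plus strand, *Tnnc2* at chr2:164777161-164779967 on the minus strand, *Tpm1* at chr9:67022590-67049406 on the minus strand, *Tpm2* at chr4:43514711-43523765 on the minus strand and *Tpm3* at chr3:90072649-90100902 on the plus strand. Counts covered whole genes, exons and UTRs together, so splice forms of 1 gene, such as the muscle and cytoplasmic forms of the tropomyosins, were not separated. *Tnnc1* lies entirely within *Nisch*, which runs on the opposite strand. *Nisch* averaged 96.0 CPM in WT, 105 CPM in WT + TAM, 111 CPM in *Mtm1*-/y and 98.8 CPM in *Mtm1*-/y + TAM. Whether reads were counted by strand is not stated, so that *Nisch* reads among the low *Tnnc1* counts cannot be told apart. *Tnnc2* and *Tnnt3* overlap *Ube2c* and *Prr33* in the same way, but these were at most 15.9 and 298 CPM, far under the members themselves.

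Of the 10 genes, 8 had at least 1 RefSeq promoter entry in GRCm38.p6, and *Tnni2* and *Tnnt3* were not matched. The 250 bases before the start were searched on both strands for the MCAT motif CATTCC, which proteins of the TEAD family bind, for the TATA motif TATAAA, for the E-box CANNTG, and for the MEF2 and CArG consensus motifs, whose A and T runs can share letters with TATAAA. MCAT was present in *Tnnc1*, in 1 of the 2 windows of *Tnnt2*, and in *Tpm1*, against 12.6% of all 32851 promoters of the same length, TATA in *Tnnt1*, against 12.4%, and MEF2 and CArG in none of the members' windows, against 2.92% and 1.47%. An E-box was in every window of the matched members and in 66.2% of all promoters. *Tnnc1* and *Tnnt2* are shown because both were higher in *Mtm1*-/y and the printed windows contain no annotated exon; capitals mark the MCAT match, which begins 58 bases before the *Tnnc1* start, on the reverse strand, and 27 bases before the *Tnnt2* start.
*Tnnc1* (chr14:31208062-31208311, plus strand): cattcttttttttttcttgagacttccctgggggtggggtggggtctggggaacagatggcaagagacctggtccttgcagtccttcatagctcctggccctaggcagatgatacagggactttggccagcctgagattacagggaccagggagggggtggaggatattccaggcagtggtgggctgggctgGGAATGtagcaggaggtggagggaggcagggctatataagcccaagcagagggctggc
*Tnnt2* (chr1:135836084-135836333, plus strand): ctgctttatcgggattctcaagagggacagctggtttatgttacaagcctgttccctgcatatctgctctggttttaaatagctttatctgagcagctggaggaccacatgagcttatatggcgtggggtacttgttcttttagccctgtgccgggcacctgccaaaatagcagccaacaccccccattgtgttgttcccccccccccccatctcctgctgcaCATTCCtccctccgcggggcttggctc
A match of letters is a description of the window and does not show that a protein binds it. Among the members, MCAT did not follow the direction of the difference. *Tpm1*, with an MCAT match, was lower in *Mtm1*-/y, while *Tnni1* and *Tnnt1*, without a match, had higher values there.

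Within WT muscle the fast genes and *Tpm2* far exceeded the slow genes and *Tnnt2*, with no overlap between the 2 sets. Per kilobase of union exon, *Tnnt3* had the highest level (13520 ± 909 CPM per kilobase, SD, n = 4), followed by *Tnnc2* (12196 ± 980), whose range overlapped that of *Tnnt3*. *Tnni2* (5352 ± 384), *Tpm1* (3203 ± 211) and *Tpm2* (2158 ± 87.9) followed, each apart from its neighbours. The slow genes were at 2.60 ± 0.284 for *Tpm3*, 1.87 ± 0.474 for *Tnnc1*, 1.22 ± 0.200 for *Tnnt1* and 0.590 ± 0.129 for *Tnni1*, and *Tnnt2* was lowest at 0.387 ± 0.0378 CPM per kilobase. Among these, the ranges of *Tpm3* and *Tnnc1*, and of *Tnnc1* and *Tnnt1*, overlapped. The order within each set depends on the length chosen, since *Tnnt2* has 7752 bases of union exon but a median coding transcript of 1096 bases; with the latter, *Tnnt2* (2.73 ± 0.267) lay above *Tnnc1* (2.70 ± 0.685) by less than the spread of *Tnnc1*. In *Mtm1*-/y, by union exon, *Tnnc2* came before *Tnnt3* and *Tpm2* before *Tpm1*, each pair with overlapping ranges, and *Tnnc1*, *Tnni1* and *Tnnt1* came before *Tpm3*, of which *Tnnc1* alone did not overlap with it.

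Tropomyosin showed the largest shift in make-up, in percentage points. In WT, *Tpm1*, the fast and cardiac alpha-tropomyosin gene, made up 63.1, 57.8, 59.4 and 58.5% of the 3 tropomyosins per length of union exon in replicates 1 to 4. Its share in *Mtm1*-/y was 38.7, 45.1, 44.6 and 47.3%. No *Mtm1*-/y library reached the lowest WT library, and the group means were 59.7 ± 2.36% and 43.9 ± 3.69% (SD, n = 4 each). *Tpm2* made up nearly all of the rest, with 36.9, 42.2, 40.5 and 41.5% in WT and 61.2, 54.8, 55.3 and 52.6% in *Mtm1*-/y. Beta-tropomyosin thus went from the minor to the major tropomyosin in every untreated mutant library, on this length scale. With the median coding transcript length the means for *Tpm1* were 76.6% in WT and 63.3% in *Mtm1*-/y, so that the shift remained but *Tpm1* stayed the major form. Leaving out any 1 library kept the difference in the *Tpm1* share between -16.9 and -14.0 percentage points, and shares were described without a test.

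**Figure D1:**
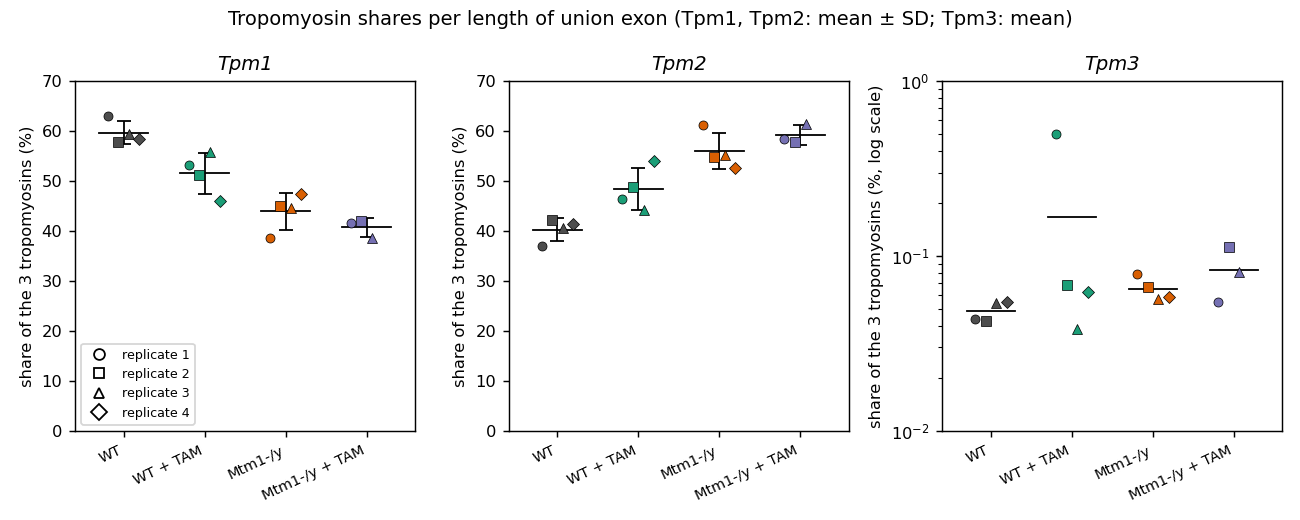
Share of each tropomyosin gene among *Tpm1*, *Tpm2* and *Tpm3* (%, per length of union exon) in each library of the 4 groups; bars give mean ± SD for *Tpm1* and *Tpm2*, lines the mean for *Tpm3*, whose axis is logarithmic. *Tpm1* lies between 57.8 and 63.1% in WT and between 38.7 and 47.3% in *Mtm1*-/y, and the WT + TAM mean of 51.5% lies between, with replicate 4 inside the *Mtm1*-/y range.

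Behind this shift was a fall of *Tpm1* rather than a called rise of *Tpm2*. *Tpm1* measured 22777, 20143, 20413 and 19741 CPM in WT and 8786, 13136, 16592 and 14489 CPM in *Mtm1*-/y. The groups did not overlap, and *Mtm1*-/y replicate 1 was the lowest. *Tpm1* fell by 0.65 on the log2 scale (SE 0.16, adjusted p = 0.007092), to 0.638 of its WT level. Without that library the difference was -0.49 (adjusted p = 0.007025). *Tpm2* measured 5981, 6605, 6246 and 6283 CPM in WT and 6240, 7166, 9219 and 7232 CPM in *Mtm1*-/y. Its ranges overlapped, and the difference of 0.25 (SE 0.13, adjusted p = 0.1571) was not called. *Tpm3*, the slow tropomyosin, was at 13.9 to 17.3 CPM in WT and 16.7 to 19.9 CPM in *Mtm1*-/y, overlapping, with a log2 difference of 0.18 (SE 0.60, adjusted p = 0.8503), and its share of the tropomyosins was 0.0486 ± 0.00639% in WT and 0.0650 ± 0.00984% in *Mtm1*-/y. Smooth muscle also makes *Tpm1* and *Tpm2*. Of 8 markers of smooth muscle and pericytes, 0 were called higher and 2 lower, beside 15.5% and 14.9% of all tested genes. Their summed level was 651 to 814 CPM in WT and 459 to 570 CPM in *Mtm1*-/y, with none of the 8 at 0. The pericyte markers *Rgs5* and *Pdgfrb* averaged 409 and 78.9 CPM in WT and 220 and 52.7 CPM in *Mtm1*-/y, without overlap. The ranges of *Myh11*, *Cnn1*, *Acta2*, *Tagln*, *Smtn* and *Lmod1* overlapped between these groups. The part of these cells in the *Tpm1* result was not tested. In tissue of many cell types, fewer cells of a kind and less RNA per cell cannot be told apart.

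Among the fast troponins, the troponin T gene *Tnnt3* was the one that fell. *Tnnt3* measured 23346, 21284, 21097 and 19879 CPM in WT and 13515, 14180, 17296 and 15206 CPM in *Mtm1*-/y. Every mutant library was under every WT library, and the fall of 0.51 on the log2 scale (SE 0.11, adjusted p = 0.002986) brought it to 0.703 of WT, or -0.46 (adjusted p = 0.005723) without *Mtm1*-/y replicate 1. *Tnni2*, the fast inhibitory subunit, measured 8751, 7897, 8043 and 7357 CPM in WT and 5979, 6826, 7967 and 6752 CPM in *Mtm1*-/y. Its ranges overlapped through *Mtm1*-/y replicate 3, and the difference of -0.22 (SE 0.11, adjusted p = 0.1447) was not called. *Tnnc2*, the fast calcium sensor, was at 10809, 9272, 9885 and 9062 CPM in WT against 5906, 9305, 10185 and 9533 CPM in *Mtm1*-/y. Apart from *Mtm1*-/y replicate 1, the mutant libraries lay inside the WT range, and the difference was -0.16 (SE 0.15, adjusted p = 0.4531). Summed over the 10 genes, the libraries held 62350 to 71688 CPM in WT and 40482 to 61317 CPM in *Mtm1*-/y. The lowest of these was *Mtm1*-/y replicate 1, and the next was replicate 2 at 50675 CPM.

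**Figure D2:**
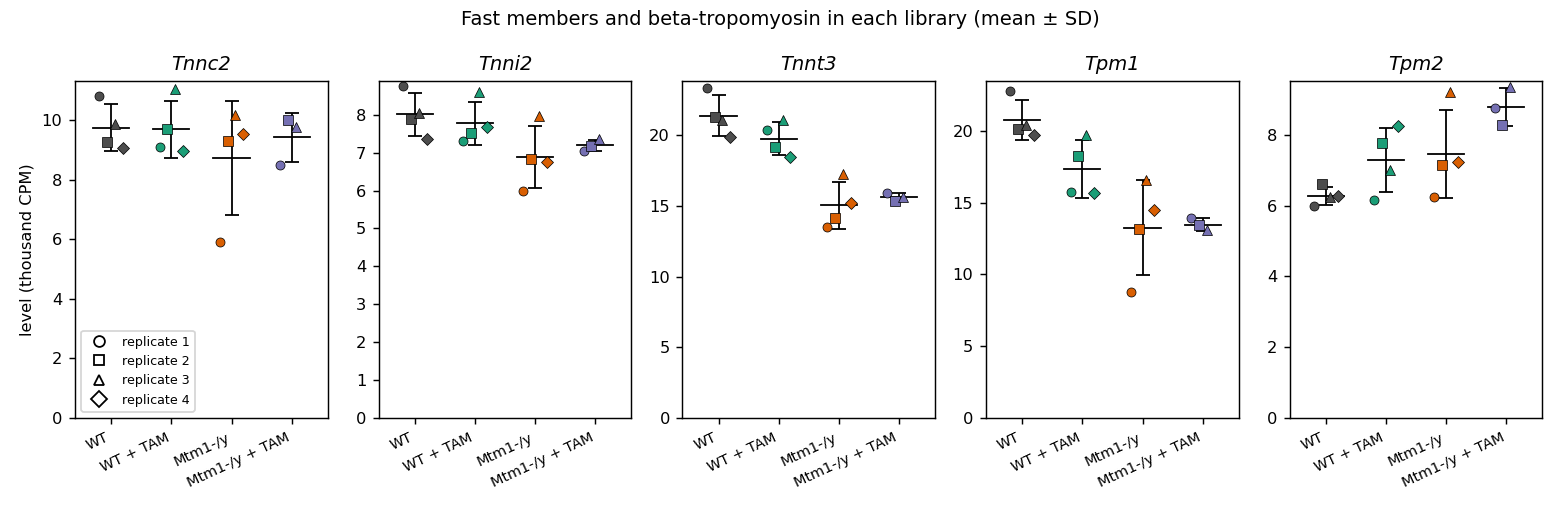
Level of *Tnnc2*, *Tnni2*, *Tnnt3*, *Tpm1* and *Tpm2* in each library (CPM in the multiple named on the axis, which starts at 0), with mean ± SD per group. *Tnnt3* and *Tpm1* are lower in all 4 *Mtm1*-/y libraries than in any WT library, while the ranges of *Tnnc2*, *Tnni2* and *Tpm2* overlap between WT and *Mtm1*-/y.

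The cardiac and developmental troponin T gene, *Tnnt2*, rose in *Mtm1*-/y. It measured 2.88, 3.28, 3.19 and 2.64 CPM in WT and 11.3, 10.5, 8.55 and 10.4 CPM in *Mtm1*-/y, from 72 to 117 and from 260 to 466 counts. The lowest mutant library was above the highest WT library by more than the whole WT range. The log2 difference was 1.77 (SE 0.30, adjusted p = 0.0005699), or 3.41-fold. Of 8 cardiac markers, 5 (*Nppa*, *Nppb*, *Myl7*, *Mybpc3* and *Ryr2*) had at most 11, 3, 3, 3 and 7 counts in any library. The 8 together summed to 9.08 to 12.2 CPM in WT and 30.9 to 45.1 CPM in *Mtm1*-/y, mostly from *Myl4*, a light chain gene shared with embryonic skeletal muscle, and *Nppb* was at 0 in all WT libraries. Despite its rise, *Tnnt2* made up 0.00287 ± 0.000301% of troponin T per length of union exon in WT and 0.0140 ± 0.00292% in *Mtm1*-/y, while *Tnnt3* held at least 99.6% in every library of the series.

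The slow troponins were higher in all 4 untreated mutants, though their call depends on a library outside the comparison. *Tnni1*, the slow inhibitory subunit, measured 1.89, 1.58, 2.52 and 2.49 CPM in WT and 12.01, 17.3, 12.5 and 11.7 CPM in *Mtm1*-/y. *Tnnc1*, the slow and cardiac calcium sensor, measured 1.67, 1.42, 2.17 and 2.52 CPM in WT and 6.51, 8.99, 8.39 and 7.01 CPM in *Mtm1*-/y. *Tnnt1*, the slow tropomyosin-binding subunit, measured 2.43, 2.25, 3.23 and 2.88 CPM in WT and 9.26, 7.22, 7.94 and 6.61 CPM in *Mtm1*-/y. For each of the 3 genes every mutant library was above every WT library, with a gap wider than the whole WT range. The log2 differences were 2.65 for *Tnni1* (SE 1.02, adjusted p = 0.06563), 1.98 for *Tnnc1* (SE 1.12, adjusted p = 0.2035) and 1.53 for *Tnnt1* (SE 1.05, adjusted p = 0.2939), none of them called. Left without WT + TAM replicate 1, the same fit gave the same differences with SE of 0.37, 0.34 and 0.37 and adjusted p of 0.0002003, 0.0006786 and 0.007664, all called, at 6.29-fold, 3.95-fold and 2.88-fold. That library enters the comparison through the spread that the 4 groups share, and a fit of the WT and *Mtm1*-/y libraries alone called the 3 genes as well (adjusted p = 3.947e-05, 0.0001936 and 0.000275), beside 27.4% of all genes tested in it.

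**Figure D3:**
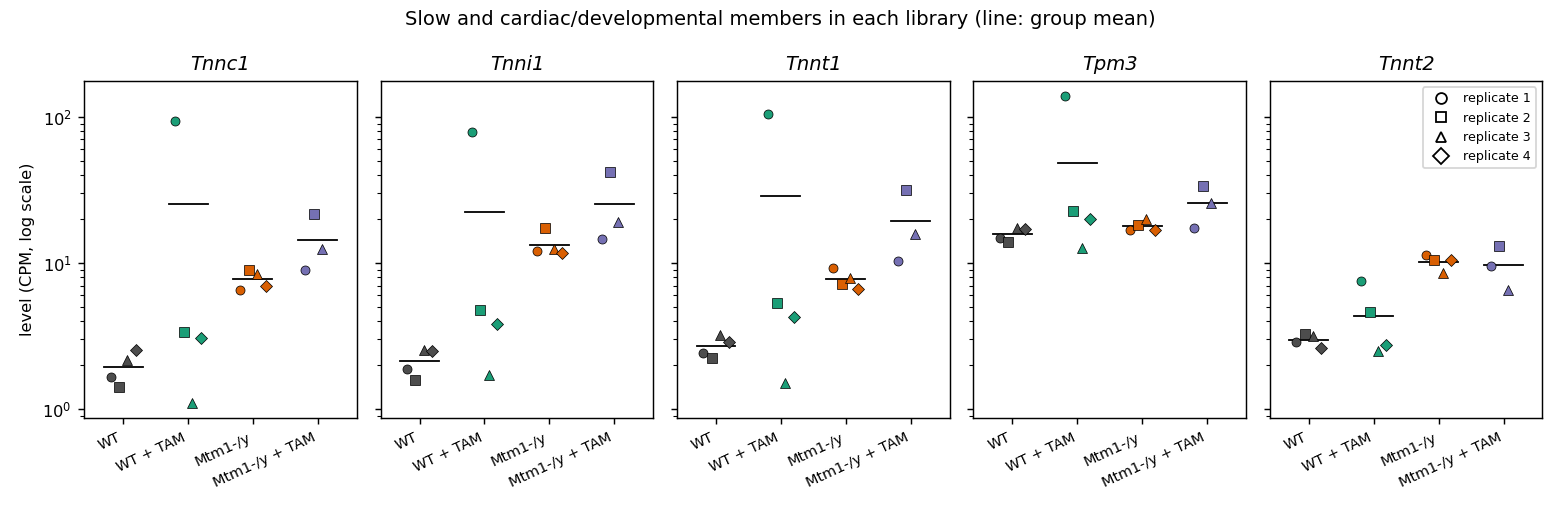
Level of *Tnnc1*, *Tnni1*, *Tnnt1*, *Tpm3* and *Tnnt2* in each library (CPM, logarithmic axis), with lines at the group means. *Mtm1*-/y libraries lie above all WT libraries for *Tnnc1*, *Tnni1*, *Tnnt1* and *Tnnt2*, and WT + TAM replicate 1 lies at 79.3 to 138 CPM for the 4 slow genes but at 7.48 CPM for *Tnnt2*.

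Counted together, 3 of the 10 genes passed the threshold in untreated mutants against WT, 1 upward and 2 downward, where 30.4% of all tested genes were called (15.5% higher and 14.9% lower), so the share called was close to the background. Without WT + TAM replicate 1 it was 6 of 10 (4 higher, 2 lower) beside 33% of all tested genes. By values alone, 4 of the 10 were higher in every *Mtm1*-/y library than in any WT library, against 14.8% of all tested genes, 2 were lower in every one, against 15.7%, and 4 overlapped. With *Mtm1*-/y replicate 1 also left out, *Tpm2* was called higher (log2 0.33, adjusted p = 0.02743), which brought the number called to 7, beside 34.2% of all tested genes.

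The slow genes were a trace of each subunit family in both genotypes. *Tnnc1* was 0.0155 ± 0.00459% of troponin C in WT and 0.0697 ± 0.0124% in *Mtm1*-/y (SD, n = 4), and *Tnni1* was 0.0111 ± 0.00288% and 0.0815 ± 0.0175% of troponin I. *Tnnt1* was 0.00912 ± 0.00183% of troponin T in WT and 0.0375 ± 0.00811% in *Mtm1*-/y. For all 3 the highest WT share (0.0214, 0.0141 and 0.0110%) was under the lowest *Mtm1*-/y share (0.0565, 0.0653 and 0.0312%). Fast genes made up at least 99.2% of troponin C, 99.5% of troponin I and 99.6% of troponin T in each of the 15 libraries, by union exon length.

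**Figure D4:**
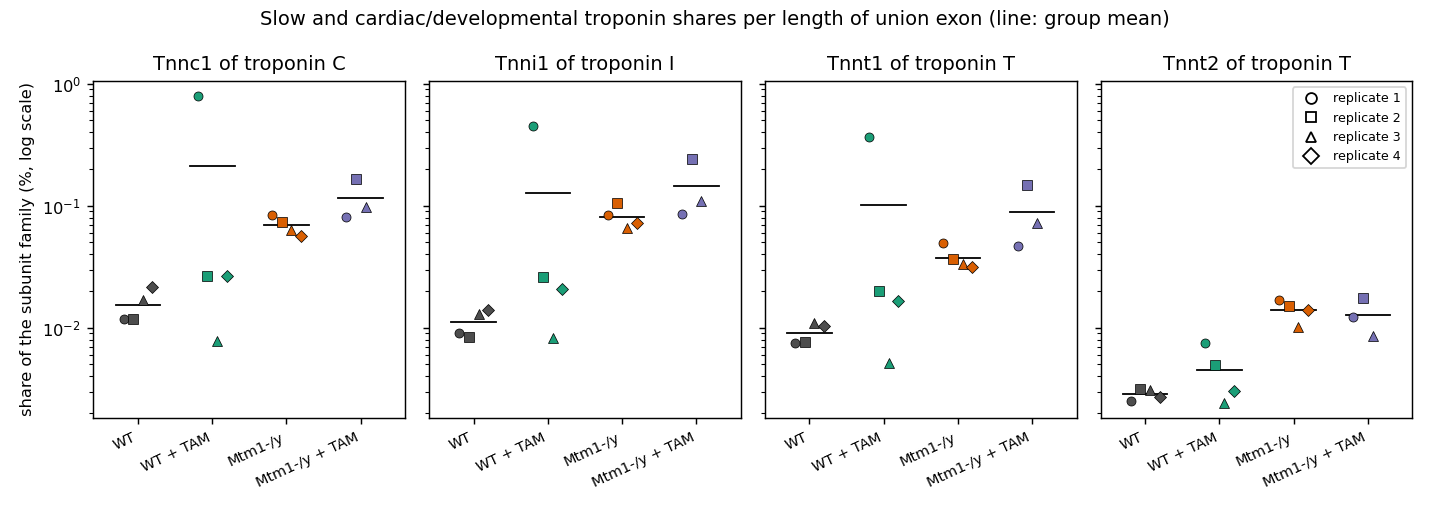
Share of *Tnnc1* in troponin C, of *Tnni1* in troponin I and of *Tnnt1* and *Tnnt2* in troponin T (%, per length of union exon, logarithmic axis) in each library, with lines at the group means. All values are under 1%, the highest being 0.788% for *Tnnc1* in WT + TAM replicate 1.

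Tamoxifen in the wild type gave no called change in the 10 genes, while 0.309% of all tested genes (48) were called. At an unadjusted p under 0.05 there were 1757 genes, limma-voom called 43 genes and none of the 10, and DESeq2 called 298 (1.92%), with *Tnnc1*, *Tnni1* and *Tnnt1* among them, but none of the 10 without WT + TAM replicate 1. In WT + TAM, *Tnnc1* measured 94.2, 3.36, 1.11 and 3.09 CPM, *Tnni1* 79.3, 4.74, 1.71 and 3.85 CPM, and *Tnnt1* 104, 5.30, 1.52 and 4.27 CPM in replicates 1 to 4. *Tpm3* measured 138, 22.7, 12.7 and 19.98 CPM. All 4 slow genes were thus at their highest in the whole series in replicate 1, and the other 3 libraries spread around the WT values, with replicate 3 below every WT library for *Tnnc1*, *Tnnt1* and *Tpm3*. The log2 differences of 3.70 (SE 1.16) for *Tnnc1*, 3.39 (SE 1.04) for *Tnni1*, 3.42 (SE 1.09) for *Tnnt1* and 1.61 (SE 0.61) for *Tpm3* had adjusted p of 0.2399, 0.2284, 0.2437 and 0.3276. Without replicate 1 they were 0.33, 0.65, 0.42 and 0.22, with adjusted p of 0.601 to 0.8175, and 0.716% of all tested genes were called.

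WT + TAM replicate 1 was high in the slow troponins as a set. It also had the highest *Tnnt2* value of the 8 wild-type libraries, at 7.48 CPM against 4.64, 2.51 and 2.75 CPM in the other 3 of its group. The log2 difference of *Tnnt2* between WT + TAM and WT was 0.53 (SE 0.30, adjusted p = 0.5425), or 0.12 (SE 0.24, adjusted p = 0.9148) without that library. The summed level of slow fibre genes outside the troponins was high too: the 10 listed summed to 1337 CPM, against 255 to 995 CPM in replicates 2 to 4, and *Myh7*, the slow myosin heavy chain, was at 439 CPM and *Myl2*, a slow light chain, at 272 CPM, where WT libraries had at most 2.80 and 5.57 CPM. Not every gene of that list was high: *Casq2*, the slow and cardiac calcium store protein, was at 14.8 CPM and *Ankrd2*, a stretch-responsive ankyrin repeat protein, at 11.8 CPM, both under every WT library. These 4 genes were picked after their values were seen. Other cell type markers moved in the same library. The 8 fibroblast markers summed to 4760 CPM (913 to 1844 in the other 3), the 7 nerve and Schwann cell markers to 198 CPM (70.6 to 129), the 8 cardiac markers to 114 CPM (7.31 to 14.9), of which *Myh6* was 105 CPM, and the 7 endothelial markers to 308 CPM (515 to 579). In the cardiac list *Nppb*, *Myl7* and *Ryr2* were at 0 in that library. The part of these in its slow troponins was not tested.

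The tropomyosin shares of the treated wild type differed from those of WT in all 4 libraries and not in replicate 1 alone. *Tpm2* made up 46.4, 48.7, 44.2 and 54.0% of tropomyosin in WT + TAM, all above the highest WT share of 42.2% and none but replicate 4 above the lowest *Mtm1*-/y share of 52.6%. *Tpm1* measured 15747, 18256, 19718 and 15663 CPM in WT + TAM, under every WT library though narrowly so in replicate 3, and was the 1 gene of 10 whose groups did not overlap, where 3.86% of all tested genes were lower without overlap. Without replicate 1, *Tpm1* was again lower without overlap and *Tpm2* higher, beside 7.42% of all tested genes lower and 7.74% higher. Neither gene was called: the log2 difference was -0.26 for *Tpm1* (SE 0.16, adjusted p = 0.5763) and 0.22 for *Tpm2* (SE 0.13, adjusted p = 0.5593). Among the fast troponins the differences were -0.01 for *Tnnc2* (SE 0.15), -0.04 for *Tnni2* (SE 0.11) and -0.11 for *Tnnt3* (SE 0.11), none called.

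In the mutant, tamoxifen likewise gave no called change in the 10 genes, with 0.0129% of all tested genes (2) called, 861 at an unadjusted p under 0.05, and 4 called by DESeq2 and 2 by limma-voom, none of them a member. This comparison and that of *Mtm1*-/y with WT share the *Mtm1*-/y libraries. *Tnni1* measured 14.6, 41.8 and 19.2 CPM in *Mtm1*-/y + TAM, *Tnnc1* 8.96, 21.8 and 12.5 CPM, and *Tnnt1* 10.3, 31.8 and 15.7 CPM. Replicate 2 was the highest for all 3, and *Tnnt1* was higher in every treated than in any untreated mutant, as were 3.33% of all tested genes; *Tnni1* and *Tnnc1* overlapped with *Mtm1*-/y. The log2 differences were 1.32 for *Tnnt1* (SE 1.04, adjusted p = 0.878), 0.92 for *Tnni1* (SE 0.96, adjusted p = 0.8942) and 0.91 for *Tnnc1* (SE 1.09, adjusted p = 0.9053), and without WT + TAM replicate 1 the SE were 0.37, 0.35 and 0.33 with adjusted p of 0.636, 0.7172 and 0.7133. The slow troponins of treated mutants were not shown to differ from those of untreated mutants, and their means lay farther from WT.

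*Tnnt2*, *Tnnt3* and *Tpm1*, the 3 genes called between untreated genotypes, stayed near their mutant levels under the drug. *Tnnt2* measured 9.54, 13.1 and 6.52 CPM (log2 difference from *Mtm1*-/y -0.07, SE 0.30), *Tnnt3* 15925, 15329 and 15635 CPM (0.05, SE 0.12), and *Tpm1* 13932, 13410 and 13093 CPM (0.02, SE 0.17). These values lay inside the *Mtm1*-/y range except for *Tnnt2* in replicates 2 and 3, which lay above and below it. *Tpm2* measured 8754, 8291 and 9359 CPM, with a difference of 0.24 (SE 0.14, adjusted p = 0.8546), and made up 58.3, 57.9 and 61.4% of tropomyosin, overlapping with *Mtm1*-/y. *Tpm3* measured 17.2, 33.6 and 25.8 CPM, with a difference of 0.52 (SE 0.64, adjusted p = 0.9058). *Tnni2* and *Tnnc2* differed by 0.06 (SE 0.12) and 0.11 (SE 0.16).

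Between the genotypes under tamoxifen, *Tnnt2* alone of the 10 was called (log2 1.17, SE 0.31, adjusted p = 0.01548), where 20.1% of all tested genes were. Its ranges overlapped, with 6.52 CPM in *Mtm1*-/y + TAM replicate 3 and 7.48 CPM in WT + TAM replicate 1. Leaving out *Mtm1*-/y + TAM replicate 2 ended this call (log2 0.89, adjusted p = 0.09782), as did fitting these 2 groups alone (adjusted p = 0.08165). Without WT + TAM replicate 1, 4 were called beside 21.5% of all tested genes, all higher in the mutant: *Tnni1* by 2.92 (SE 0.42, adjusted p = 0.0004835), *Tnnc1* by 2.57 (SE 0.39, adjusted p = 0.0005877), *Tnnt1* by 2.43 (SE 0.43, adjusted p = 0.001916) and *Tnnt2* by 1.58 (SE 0.25, adjusted p = 0.0006658). With that library the same contrast read -0.81 for *Tnnc1*, -0.57 for *Tnnt1* and 0.18 for *Tnni1*, so 1 mouse of 4 turned the sign of the first 2 genes, and that of *Tpm3* (-0.91 with it, 0.48 without). *Tnnt3* was lower in every *Mtm1*-/y + TAM than in any WT + TAM library and differed by -0.34 (SE 0.12, adjusted p = 0.05502), *Tpm1* likewise by -0.36 (SE 0.17, adjusted p = 0.1543), and *Tpm2* was higher in every one and differed by 0.27 (SE 0.14, adjusted p = 0.1879). Genes higher or lower without overlap were 17.2% and 14.4% of all tested genes. Without WT + TAM replicate 1, 5 of the 10 members were higher without overlap, 3 were lower and 2 overlapped, beside 22.2% of all tested genes higher and 21.5% lower. Without *Mtm1*-/y replicate 1, which enters through the shared spread, *Tnnt3* (adjusted p = 0.03144) and *Tpm1* (adjusted p = 0.0369) were called, and *Tnnt3* also without *Mtm1*-/y replicate 3 (adjusted p = 0.03641).

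The test of whether tamoxifen acted differently in the 2 genotypes, the interaction, called 0 of the 10 and 0 of all tested genes with edgeR, against 1650 genes at an unadjusted p under 0.05, 74 called by DESeq2 and 0 by limma-voom, none of them a member. The interaction of *Tnnc1*, *Tnni1* and *Tnnt1* was -2.79 (SE 1.58), -2.47 (SE 1.41) and -2.10 (SE 1.49) with all libraries and 0.58 (SE 0.50), 0.27 (SE 0.54) and 0.90 (SE 0.56) without WT + TAM replicate 1. For *Tpm1* and *Tpm2* it was 0.28 (SE 0.23) and 0.02 (SE 0.19).

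**Figure D5:**
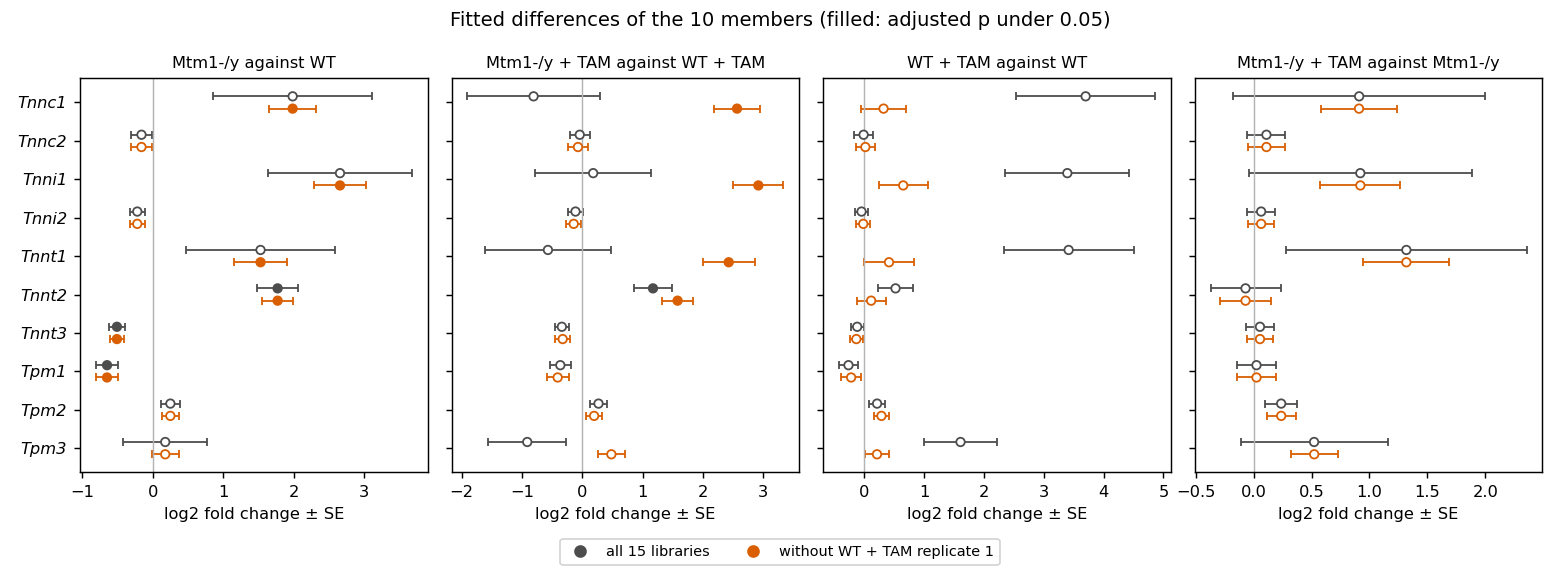
Fitted log2 fold change ± SE of the 10 genes in 4 comparisons, from all 15 libraries and from the 14 without WT + TAM replicate 1; filled points have an adjusted p under 0.05. In *Mtm1*-/y against WT both fits give the same values with narrower errors in the second, and in the other comparisons that include WT + TAM the slow genes move, *Tnnc1* from -0.81 to 2.57 in *Mtm1*-/y + TAM against WT + TAM.

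The slow genes also differed among themselves. In WT, *Tnnc1* had 0.860 to 1.01 counts per count of *Tnni1* and *Tnnt1* had 1.15 to 1.42. For *Mtm1*-/y these ratios were 0.520 to 0.670 and 0.417 to 0.771, and in *Mtm1*-/y + TAM 0.521 to 0.652 and 0.706 to 0.820. *Tnni1* thus gained the most of the 3, in treated and untreated mutants, with no overlap with WT in either ratio. WT + TAM replicate 1, with by far the highest slow levels, had ratios of 1.19 and 1.31, the first above and the second within the WT range, while the other 3 WT + TAM libraries had 0.648 to 0.802 and 0.887 to 1.12, both under the WT range. The first of these reached into the range of both mutant groups, in replicate 3, and the second lay above it. The ratio of *Tnnt2* to *Tnni1* counts was 1.06 to 2.08 in WT, 0.606 to 0.939 in *Mtm1*-/y, 0.312 to 0.655 in *Mtm1*-/y + TAM and 0.0944 in WT + TAM replicate 1.

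Other sarcomere genes, from lists written with earlier results of these data known, were read beside the members; the counts called in each are to be read beside the 15.5% of all tested genes called higher and 14.9% called lower in *Mtm1*-/y against WT. In *Mtm1*-/y against WT, the slow fibre list had 1 of 10 called higher and 1 lower, with a median log2 difference of 0.72 beside 0.00 over all tested genes; without WT + TAM replicate 1 it was 4 higher and 1 lower. *Myoz2*, a Z-disc protein of slow fibres, rose by 1.22 (SE 0.38, adjusted p = 0.02743), while *Myl3*, the slow and cardiac essential light chain, fell by 3.81 on the log2 scale (SE 0.48, adjusted p = 0.0001251), from 13.4 to 32.9 CPM in WT to 1.25 to 2.12 CPM in *Mtm1*-/y. *Myl3* thus fell in the same mutants in which all 3 slow troponins had higher values than in WT. *Myh7*, also named after its values were seen, differed by 0.87 (SE 1.54, adjusted p = 0.7067). It was not called, with or without WT + TAM replicate 1 (adjusted p = 0.2148 without it). Its ranges did not overlap, at 1.46 to 2.80 CPM in WT and 3.09 to 4.66 CPM in *Mtm1*-/y. *Myl2* and *Myl6b*, light chain genes of the same list named after their values were seen, were not called. They differed by -0.26 (SE 1.31, adjusted p = 0.9023) and 0.93 (SE 0.35, adjusted p = 0.05974). Without WT + TAM replicate 1, *Myl6b* was called higher (adjusted p = 0.005188). In the fast fibre list, 0 of 11 were called higher and 2 lower (median -0.29): *Mybpc2*, the fast myosin-binding protein C, fell by 0.95 (SE 0.23, adjusted p = 0.005655), and *Casq1*, the fast calcium store protein, fell by 0.66 (SE 0.24, adjusted p = 0.0461). The ranges of *Casq1* overlapped, at 4964.5 to 6738.5 CPM in WT and 1656.4 to 5043.7 CPM in *Mtm1*-/y.

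Of 10 listed genes of developing and regenerating fibres, 8 were called higher in *Mtm1*-/y, as *Tnnt2* was, and 1 lower (median 1.76). *Ncam1*, an adhesion molecule of immature and denervated fibres, rose by 2.80 (SE 0.30, adjusted p = 3.101e-05), and *Myog*, the transcription factor of differentiating myoblasts, rose by 2.63 (SE 0.42, adjusted p = 0.0005949). *Actc1*, the cardiac and foetal actin, did not share this: it fell by 3.42 on the log2 scale (SE 0.98, adjusted p = 0.01921). Of 20 other thin filament genes, 5 were called higher and 7 lower (median -0.22), among them *Lmod2*, a filament nucleator, which rose by 2.24 (SE 0.59, adjusted p = 0.01255), and *Kbtbd13*, a nemaline myopathy gene, which fell by 1.73 (SE 0.27, adjusted p = 0.0003948). *Lmod2* ran from 56.2 to 67.5 CPM in WT and from 133.5 to 673.7 CPM in *Mtm1*-/y, where its highest library lay far above its mean of 298 CPM. Of 17 regulators of slow and fast genes, 4 were called higher and 2 lower (median -0.01). *Tead4*, one of the TEAD factors, the family that binds MCAT sites, rose by 1.73 (SE 0.30, adjusted p = 0.000954), *Rcan1*, a target and regulator of calcineurin, rose by 1.44 (SE 0.36, adjusted p = 0.009053), and *Vgll2*, a muscle cofactor of the TEAD family, rose by 1.19 (SE 0.40, adjusted p = 0.03731). *Vgll2* ran from 20.3 to 29.0 CPM in WT and from 30.9 to 126 CPM in *Mtm1*-/y, where its highest library lay far above its mean of 56.7 CPM. *Tead1*, a more abundant TEAD factor of the same list, named after its values were seen, fell by 0.51 (SE 0.13, adjusted p = 0.009522), with group means of 224 CPM for WT and 157 CPM for *Mtm1*-/y, where *Tead4* had 7.19 and 23.9 CPM.

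None of the genes in these 5 lists was called between *Mtm1*-/y + TAM and *Mtm1*-/y, or between WT + TAM and WT, with all 15 libraries. Macrophage markers had 1 of 8 called higher between *Mtm1*-/y and WT, and satellite cell markers had 4 of 6 called lower (median -1.74). Endothelial markers had 6 of 7 called lower (median -0.74). All tested genes were called higher in 15.5% and lower in 14.9%.

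Genes whose pattern was most like that of *Tnni1* over the 15 libraries, by the root mean square difference of centred log2 CPM, were *Myom3* (0.796), *Spp1* (0.855), *Ccn2* (0.913), *Fxyd6* (0.976) and *Srgap3* (0.995), beside a standard deviation of *Tnni1* itself of 1.68. Without WT + TAM replicate 1 they were *Fxyd6* (0.433), *Trp63* (0.452), *Rin1* (0.513), *Fhl2* (0.522) and *Myl4* (0.535), so that *Fxyd6* alone was among both. For *Tnnt2*, with a standard deviation of 0.852, they were *Arfgap3* (0.262), *Chrna1* (0.292), *Plekho1* (0.299), *Armh4* (0.334) and *Anxa7* (0.335), and *Chrna1*, the alpha subunit of the muscle acetylcholine receptor, and *Arfgap3* were also among the closest 5 over the 14 libraries.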

How the data were processed

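Tools named in the submitters' processing notes were STAR 2.5.3a, HTSeq 0.6.1p1, cutadapt 1.10 and Bowtie2 2.2.8, with GRCm38 and mm10 as builds; the sources used here do not state annotation, strand setting or filters. The deposited values are raw read counts per Ensembl gene, not normalized by the authors. All identifiers matched GENCODE M21. Counts were fitted in edgeR 4.0.16 (R 4.3.3; filterByExpr, minimum count 10; TMM; glmQLFit robust, 4 group means, all 15 libraries; glmQLFTest), with p-values adjusted over 15533 genes. The SE given with an edgeR difference is the absolute log2 difference divided by the square root of the quasi-likelihood F statistic. The fit was tested on simulated data with the same spread for every gene and no outlying library. That test could not probe the effect of WT + TAM replicate 1. Shares used counts per kilobase of union exon within each subunit family. Named were the 10 members, *Mtm1*, up to 3 called genes per list with the largest change between *Mtm1*-/y and WT, and the 5 genes most like *Tnni1* and *Tnnt2* with a mean log2 CPM (prior count 2) of at least 1. Alternatives were other factors, filters, DESeq2 1.42.0, limma-voom (limma 3.58.1), a 2-group fit, a replicate block, each library left out and other lengths. Libraries of a group differed beyond sampling noise. The members and lists were chosen with earlier results of these data known.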

Additional observations from a re-analysis of the deposited data

Results flagged for a closer look

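Of 30 sets of 4 libraries (10 genes in 3 groups), 5 had a value farther from the rest than Dixon's 95% limit, where chance gives about 1 in 20; 4 of the 5 were in WT + TAM replicate 1. In that library the level stood apart from the other 3 for *Tnnc1* (94.2 CPM), *Tnni1* (79.3 CPM), *Tnnt1* (104 CPM) and *Tpm3* (138 CPM). *Tnni1* in *Mtm1*-/y replicate 2 (17.3 CPM) also stood apart from its group. The causes were not tested.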

How the results depend on the processing

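Counts of the 10 genes called and the direction of each were recomputed under every alternative; leaving out WT + TAM replicate 1 with DESeq2 or limma-voom, and leaving it out with *Mtm1*-/y + TAM replicate 2, were chosen after seeing the data. For single genes 1280 values kept direction and side of the threshold, 39 gained a call, 4 lost one and 67 changed sign. For *Mtm1*-/y against WT, a fold limit of 1 on the log2 scale left 1 gene called, the 2-group fit called 6, DESeq2 and limma-voom without WT + TAM replicate 1 each called 6, and leaving out libraries gave 3 to 7; *Tnni1* was also called by DESeq2 (adjusted p = 0.01367) and without WT + TAM replicate 3 (adjusted p = 0.033). In WT + TAM against WT, DESeq2 called 3. For *Mtm1*-/y + TAM against WT + TAM, upper-quartile factors, a minimum count of 50, DESeq2 and limma-voom each called 2, adding *Tnnt3*, the 2-group fit called 0, DESeq2 and limma-voom without WT + TAM replicate 1 called 5 and 4, and leaving out libraries gave 0 to 6.

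Share differences between *Mtm1*-/y and WT, in percentage points, depended on the length. By median coding transcript and by raw counts they were 0.0684 and 0.0705 for *Tnnc1* and 0.151 and 0.169 for *Tnni1*. They were 0.0505 and 0.0394 for *Tnnt1*, 0.0503 and 0.0547 for *Tnnt2*, -0.101 and -0.0942 for *Tnnt3*, and 0.0430 and 0.0300 for *Tpm3*. The *Tpm1* share by raw counts averaged 76.7% in WT and 63.5% in *Mtm1*-/y, against 59.7 and 43.9% by union exon length.

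With a replicate block, the log2 difference between *Mtm1*-/y + TAM and WT + TAM was 0.31 for *Tnnc1* and 0.46 for *Tnnt1*, opposite in sign to the fit without it, and 4473 genes in place of 4727 were called between *Mtm1*-/y and WT. The labels do not state whether the numbers pair the libraries. Correlations of same-numbered deviations ran from -0.113 to 0.306. Libraries with different numbers were not correlated for reference, so these values cannot decide whether libraries were paired. Limma-voom gave 1.51 for *Tnnc1* and 1.44 for *Tnnt1* in that contrast. Without WT + TAM replicate 1 it gave 2.79, 2.65 and 0.54 for *Tnnc1*, *Tnnt1* and *Tpm3*, and DESeq2 2.54, 2.40 and 0.48. The interaction without that library was, by DESeq2, 0.54 for *Tnnc1*, 0.22 for *Tnni1*, 0.86 for *Tnnt1*, -0.0697 for *Tpm2* and 0.29 for *Tpm3*, and by limma-voom 0.81, 0.39, 1.11, -0.0404 and 0.37. *Tnnc2* in WT + TAM against WT was then 0.0259 and 0.0176.

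Left-out libraries changed the sign of values near 0 or of slow genes. In *Mtm1*-/y + TAM against *Mtm1*-/y the log2 difference ran from -0.0373 to 0.18 for *Tnnc2*, -0.35 to 0.15 for *Tnnt2* and -0.13 to 0.14 for *Tpm1*, and in WT + TAM against WT from -0.0762 to 0.0453 for *Tnnc2* and -0.0939 to 0.00261 for *Tnni2*. In *Mtm1*-/y + TAM against WT + TAM it ran from -1.24 to 2.58 for *Tnnc1*, -0.12 to 0.0288 for *Tnnc2*, -0.40 to 2.94 for *Tnni1*, -1.14 to 2.45 for *Tnnt1* and -1.23 to 0.49 for *Tpm3*. The interaction ran from -3.22 to 0.58 for *Tnnc1*, -0.0590 to 0.19 for *Tnnc2*, -3.05 to 0.27 for *Tnni1*, -2.66 to 1.02 for *Tnnt1*, -0.13 to 0.13 for *Tpm2* and -1.41 to 0.31 for *Tpm3*. The causes were not tested. Counts of 36 to 117 per WT library limit the precision of *Tnnc1*, *Tnni1*, *Tnnt1* and *Tnnt2*.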
